A study of Mus musculus with 9 samples.

Results

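RNA polymerase III (Pol III) and its repressor Maf1 were followed through the first 48 h of spermatogonial stem cell (SSC) differentiation in vitro. The 10 genes chosen by name were Maf1, the TFIIIB factors Brf1 and Brf2, and the Pol III subunits Polr3a, Polr3b, Polr3c, Polr3d, Polr3e, Polr3g and Polr3gl. All 10 had a row among the 46078 counted genes, and all 10 passed the filter on low counts in each of the 3 comparisons. The RNA-seq data comprised 9 libraries of poly-A RNA, made in 3 biological replicates per time from cells at 0 h, 24 h and 48 h. All libraries came from EGFP-SSCs, 1 mouse line of wild-type genotype that carries a green fluorescent protein, so no second line checks the values. The 0 h cells were in normal culture on mitomycin C-treated mouse embryonic fibroblasts, in a medium with GDNF, bFGF and EGF. For the 24 h and 48 h groups, equal numbers of EGFP-SSCs and somatic cells were mixed. The somatic cells came from testes of busulfan-exposed mice of 3 to 7 days postpartum, in which germ cells are depleted. These co-cultures were kept in α-MEM with KSR, BMP-4/7, retinoic acid, activin A, testosterone, FSH and BPE, and EGFP-positive cells were then sorted, a step that the labels give for these times only, while the study's text speaks of sorting at each stage. Whether the 0 h cells were sorted is thus uncertain. The 0 h cells differ from the others in medium, in time, possibly in the sort, and in companion cells (fibroblast feeders in place of testis somatic cells), and these cannot be told apart.

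Pol III makes the short RNAs that every cell needs for translation and RNA processing, among them tRNAs, 5S rRNA, U6, 7SK and the RNA of RNase P. TFIIIB brings the enzyme to its genes. TFIIIB holds Brf1 at tRNA and 5S genes, and its paralog Brf2 at genes with upstream promoters such as U6 and 7SK. Maf1 is a repressor that binds Pol III and keeps it from TFIIIB. It is held inactive by phosphorylation through mTORC1, the nutrient-sensing kinase complex. The subunits Polr3g and Polr3gl take the same place in the enzyme. Polr3g is known for its high expression in pluripotent cells, whereas Polr3gl is found widely in differentiated cells. Spermatogonia that enter differentiation in response to retinoic acid keep dividing, and mTORC1 signalling is known to take part in this step.

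The libraries held 16825251 to 22201892 counts, and each of the 10 genes had 262 to 3928 counts in every library. Replicates differed by more than sampling noise (chi-square of 7.13 to 81.4 per degree of freedom over genes), and each library was counted as 1 replicate. The largest of these differences were within the 0 h group, whose libraries also differed along GC content. The median log2 level of GC-rich genes relative to GC-poor genes was -0.76, 0.16 and 0.92 in 0 h replicates 1, 2 and 3, against -0.56 to 0.38 in the other 6 libraries. Of 10 germ cell markers, 9 reached 1 CPM (normalised read count, scaled to the library total) at each time, with a summed level of 2104 to 3155 CPM at 0 h and 2839 to 3180 CPM later. Somatic markers were present in the sorted cells. The 8 stromal markers, all of which reached 1 CPM at each time, summed to 315 to 402 CPM at 0 h, 2130 to 2462 CPM at 24 h and 2857 to 3146 CPM at 48 h. The 6 peritubular myoid markers went from 13.7 to 15.6 CPM, to 146 to 207 and to 263 to 321 CPM. The 8 Sertoli markers summed to 17.6 to 22.2, 53.2 to 84.2 and 66.6 to 71.8 CPM, with Fshr at 0 in all 0 h libraries. The 6 Leydig markers were at 4.48 to 6.79, 24.6 to 38.5 and 25.2 to 32.5 CPM, with Hsd3b1 and Insl3 at 0 at 0 h and Lhcgr at 0 at 24 h. Endothelial markers (5 genes) summed to 68.5 to 92.0 CPM at 0 h and 29.9 to 33.9 CPM at 48 h, and macrophage markers (5 genes) were at 15.5 to 18.3 CPM at 0 h and 6.20 to 10.1 CPM later. At 0 h, 4 of 8 Sertoli, 4 of 6 peritubular myoid, 1 of 6 Leydig and 1 of 5 macrophage markers reached 1 CPM. Single markers did not always follow their sum in the edgeR test described below. Of 9 germ cell markers tested, 2 rose and 1 fell at 24 h versus 0 h (log2 fold changes from -0.80 to 2.10). At 48 h versus 0 h, 2 also rose and 1 fell (from -1.10 to 1.96). At 24 h versus 0 h, 5 Sertoli markers rose and 2 fell, and 5 stromal markers rose and 1 fell. The stromal marker that fell was Thy1 (log2 fold change -1.49). Of the endothelial markers 1 rose (Tek, 1.31) and 2 fell, and of the macrophage markers 1 rose and 1 fell. The part of these somatic cells in the levels of the Pol III genes was not tested. In such bulk samples, a change in the share of a cell type and a change in RNA per cell cannot be told apart.

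Promoter sequences are shown for 3 subunits. Polr3e had the steepest rise of the 10 genes, and Polr3g and Polr3gl are the paralogs that followed different courses. Each line gives the 250 bases upstream of the transcription start, 5′ to 3′ on the strand of the gene, from RefSeq (GRCm38.p6). Capitals mark matches, on either strand, to the B box of tRNA genes (its usual consensus, the first capitals in the Polr3e run), the E box (CACGTG), the GC box (GGGCGG) and the ETS core (CCGGAAG). A match is a description of the letters and not evidence of binding.
Polr3e (chr7:120917528-120917777, plus strand): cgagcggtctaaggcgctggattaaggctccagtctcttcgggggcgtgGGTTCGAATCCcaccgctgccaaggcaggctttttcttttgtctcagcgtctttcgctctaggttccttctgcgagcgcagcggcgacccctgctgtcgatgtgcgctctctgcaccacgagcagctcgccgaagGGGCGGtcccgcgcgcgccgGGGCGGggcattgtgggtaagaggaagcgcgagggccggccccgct
Polr3g (chr13:81711014-81711263, minus strand): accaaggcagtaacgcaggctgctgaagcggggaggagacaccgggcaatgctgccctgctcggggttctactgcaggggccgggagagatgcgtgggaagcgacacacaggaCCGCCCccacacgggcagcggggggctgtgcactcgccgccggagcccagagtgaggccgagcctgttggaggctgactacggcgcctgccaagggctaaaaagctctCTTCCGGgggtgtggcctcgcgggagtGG
Polr3gl (chr3:96594182-96594431, minus strand): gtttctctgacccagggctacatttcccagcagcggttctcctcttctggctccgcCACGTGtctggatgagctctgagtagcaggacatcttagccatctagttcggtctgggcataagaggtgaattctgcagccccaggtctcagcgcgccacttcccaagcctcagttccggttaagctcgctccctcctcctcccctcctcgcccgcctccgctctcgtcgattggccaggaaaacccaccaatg
The B box match upstream of Polr3e, 201 bases before the start, lies in a tRNA gene that RefSeq names n-TLaag4. This gene, itself of the kind that Pol III transcribes, spans 82 bases (chr7:120917517-120917598) and ends 180 bases before the Polr3e start. Of 17492 protein-coding genes with a promoter entry, 5 (0.0286%) had a tRNA gene in the same upstream window. The B box letters were found in 15 of 32851 promoter entries (0.0457%). The Polr3e window also held GC boxes at -66 and -46, and an E box at position 6 after the start, outside the printed run. The Polr3g window held GC boxes at -137 and -2, the latter running past the printed end, and an ETS core at -29. The Polr3gl window held an E box at -194. Over all promoter entries of the same length, the E box was found in 7.15%, the GC box in 35.7% and the ETS core in 8.86%. Promoters of Polr3b and Polr3c were also searched, with an ETS core at -11 in Polr3b, and an E box at -237 and GC boxes at -228, -209 and -148 in Polr3c. Maf1, Brf1, Brf2, Polr3a and Polr3d were not matched to this table.

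More Pol III genes rose than fell during co-culture. At 24 h versus 0 h, 5 of the 10 genes rose (Maf1, Brf1, Polr3a, Polr3b and Polr3e) and 0 fell in the quasi-likelihood test of edgeR, where an adjusted p of 0.05 was the threshold. Of the 17592 genes tested in this comparison, 25.5% passed, 11.4% higher and 14.2% lower. At 48 h versus 0 h, 5 rose (Maf1, Brf1, Polr3a, Polr3d and Polr3e) and 1 fell (Polr3gl), where 31.6% of 17755 genes passed, 13.0% higher and 18.5% lower. Both comparisons use the same 0 h libraries. At 48 h versus 24 h, 3 rose (Polr3a, Polr3d and Polr3e) and 2 fell (Polr3b and Polr3gl), and 21.3% of 17499 genes passed, 8.61% higher and 12.7% lower. The median log2 fold change of the 10 genes was 0.35, 0.36 and 0.06 in these comparisons, and that of all genes tested was 0.01, 0.02 and 0.00. When library size alone set the scale, the all-gene medians moved to 0.12 at 24 h and 0.13 at 48 h versus 0 h, and the share of called genes that were higher went from 44.5% to 57.1% and from 41.2% to 52.8%. On that scale 6, 7 and 4 of the 10 genes passed, beside 4802 of 17592, 5765 of 17755 and 3586 of 17499 genes tested. With all 9 libraries in 1 fit, only Polr3b of the 5 genes kept its call at 48 h versus 24 h, where 1043 of 18262 genes passed.

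**Figure D1:**
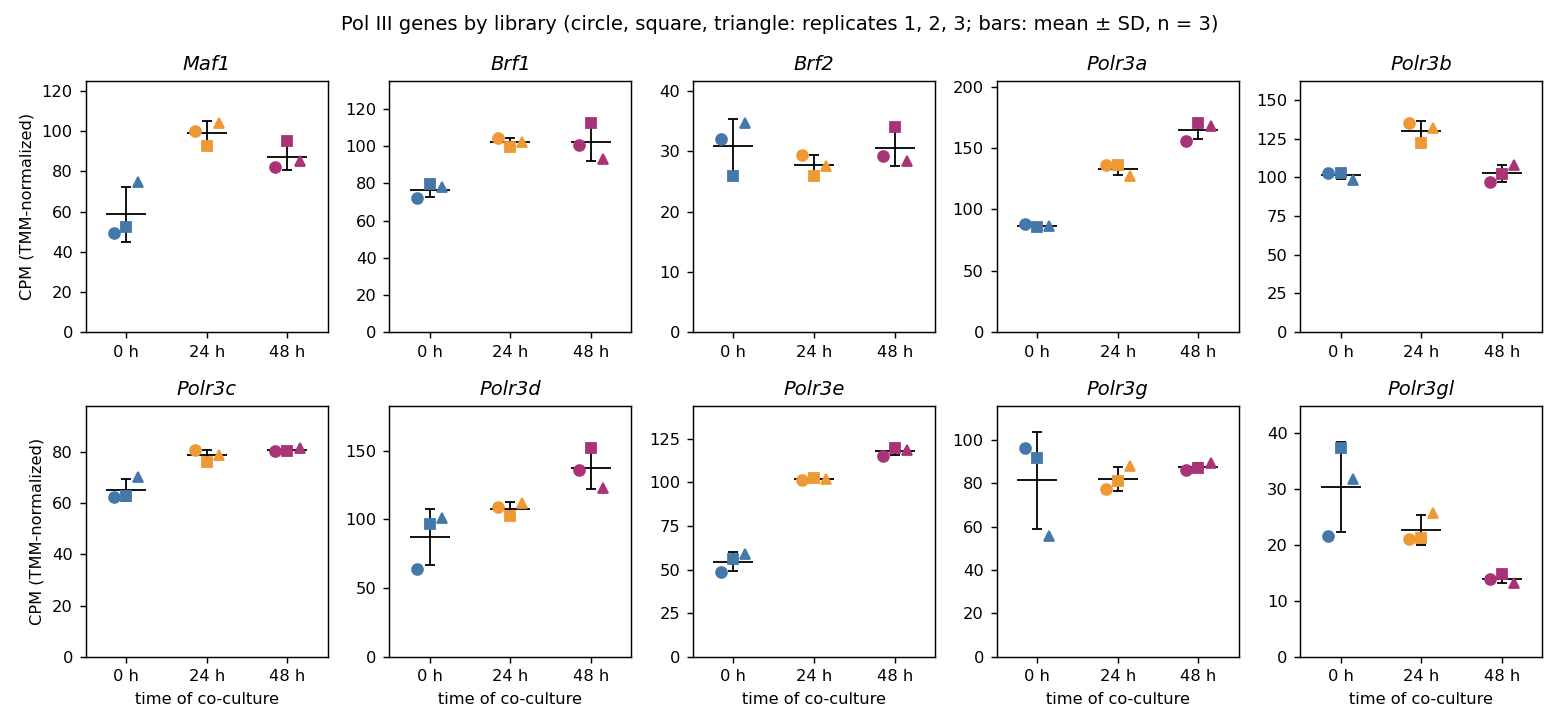
TMM-normalised read counts (CPM, y axis from 0) of the 10 Pol III genes at 0 h, 24 h and 48 h (x axis), with 1 point per library and bars for mean ± SD (n = 3). All 24 h and 48 h values of Polr3a and Polr3e lie above the 0 h values, and all 48 h values of Polr3gl (13.3 to 14.8 CPM) lie below those of the other times.

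**Figure D2:**
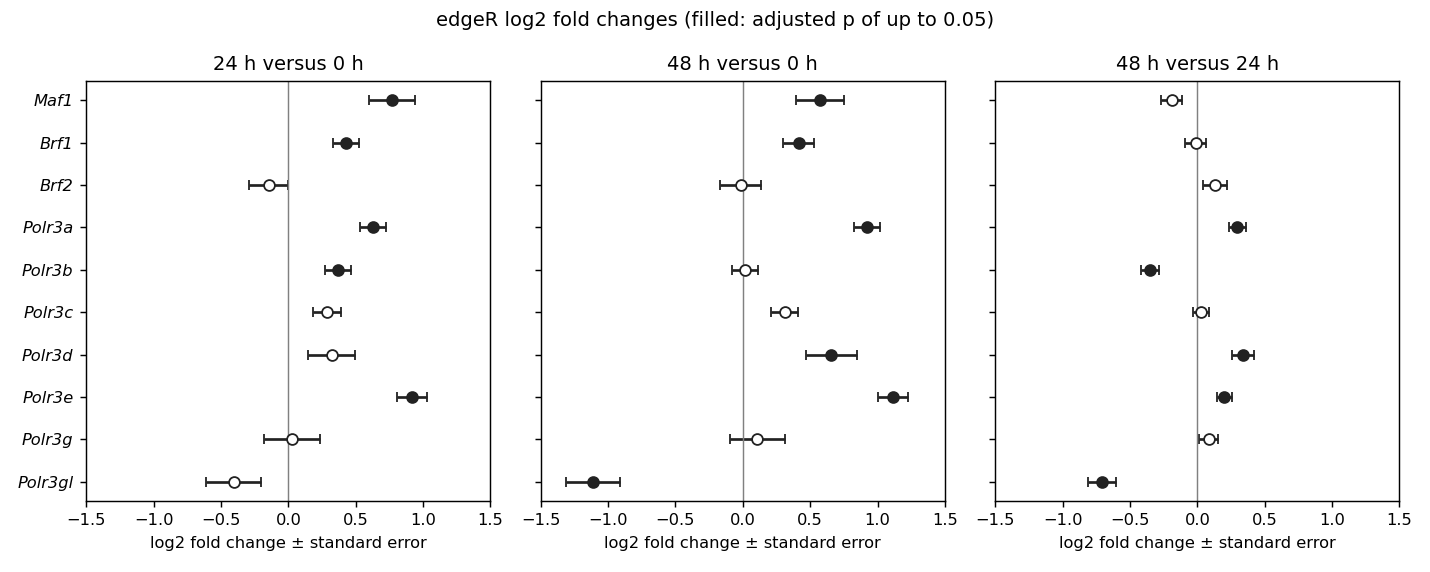
Log2 fold changes (x axis) with standard errors of the 10 Pol III genes (y axis) in the 3 comparisons, from edgeR. Filled points passed an adjusted p of 0.05. Polr3e is the highest at 24 h (0.92) and 48 h (1.11) versus 0 h, and Polr3gl the lowest (-0.40 and -1.11).

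Maf1, the repressor (ENSMUSG00000022553, chr15:76351294-76354380, plus strand, GRCm38), was higher at both times of co-culture. It had 49.3, 52.1 and 74.5 CPM at 0 h, 100.2, 92.4 and 104.1 CPM at 24 h, and 82.0, 94.9 and 84.9 CPM at 48 h. The 0 h libraries did not overlap with the later ones, while those of 24 h and 48 h overlapped. The rise at 24 h was 1.70-fold (log2 fold change 0.77 ± 0.17 (SE), edgeR adjusted p = 0.0152). At 48 h it was 1.49-fold over 0 h (0.57 ± 0.18, adjusted p = 0.0439), and the difference from 24 h did not pass (-0.19 ± 0.08, adjusted p = 0.104). The 48 h call was lost without 0 h replicate 1, 0 h replicate 2 or any of the 48 h libraries (log2 fold change 0.47 to 0.81 over the 6 left-out libraries, adjusted p up to 0.147). It was also lost with the replicate number as a block in the edgeR fit (adjusted p = 0.0677). The 24 h call was lost without 0 h replicate 2, 24 h replicate 1 or 24 h replicate 3 (0.66 to 1.00, adjusted p up to 0.0815). The exons of Maf1 are GC-rich for this set (56.1%), and its 0 h values went in the order of the GC measure of those libraries. In a fit with offsets for GC content and length, Maf1 rose by 0.84 at 24 h (adjusted p = 0.00062) and 0.83 at 48 h (adjusted p = 0.000727). The difference between 48 h and 24 h in that fit was -0.01 (adjusted p = 0.953).

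The TFIIIB factors parted. Brf1 (ENSMUSG00000011158, chr12:112960085-113000704, minus strand), the factor of tRNA and 5S genes, had 72.0, 79.6 and 77.8 CPM at 0 h, 104.3, 99.5 and 102.2 CPM at 24 h, and 100.6, 112.5 and 92.8 CPM at 48 h. It rose 1.35-fold by 24 h (log2 fold change 0.43 ± 0.10, adjusted p = 0.0168) and was 1.33-fold over 0 h at 48 h (0.42 ± 0.12, adjusted p = 0.0304), with no overlap with the 0 h libraries. Between 24 h and 48 h the values overlapped (-0.01 ± 0.08, adjusted p = 0.932). Both calls of Brf1 were lost without 0 h replicate 2 or any 1 library of the later time (0.39 to 0.47 at 24 h, adjusted p up to 0.0928, and 0.33 to 0.49 at 48 h, adjusted p up to 0.123), and with no expression filter. Brf2 (ENSMUSG00000031487, chr8:27123364-27128680, minus strand), the factor of U6 and 7SK genes, had 32.0, 25.9 and 34.7 CPM at 0 h, 29.4, 26.0 and 27.5 CPM at 24 h, and 29.2, 34.0 and 28.4 CPM at 48 h. All 3 groups overlapped. Its log2 fold change was -0.15 ± 0.15 at 24 h (adjusted p = 0.529) and -0.02 ± 0.15 at 48 h (adjusted p = 0.951) versus 0 h. The latter took a positive sign on the scale of library size alone (0.10) and with GC and length offsets (0.17). A small part of the exons of each gene overlaps a gene on the other strand, 6.83% for Brf1 (9230104M06Rik) and 2.27% for Brf2 (Adgra2), and the strand setting of the counting was not given in the sources used here.

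The ratio of Brf2 to Brf1 was compared within each library, so that the scale of the library cancels. Differences along GC content do not cancel in this way, and neither ratio was computed with GC offsets. Its log2 value was -1.17, -1.62 and -1.16 at 0 h, -1.82, -1.94 and -1.89 at 24 h, and -1.78, -1.73 and -1.71 at 48 h. Every later library lay below every 0 h library. The means were -1.32 ± 0.26 (SD, n = 3), -1.88 ± 0.06 and -1.74 ± 0.04. The times differed in a two-sided exact permutation test (p = 0.00357, the smallest that 1680 arrangements allow, and 0.00714 adjusted over the 2 ratios tested). Leaving out each library in turn kept p at 0.0429 or below. Per exon length, Brf2 was at 0.97 of the Brf1 level at 0 h, 0.66 at 24 h and 0.73 at 48 h. These shares depend on the length used. They were 0.69, 0.47 and 0.52 with the longest transcript of each gene as its length.

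The subunits of the catalytic core took different courses. Polr3a (ENSMUSG00000025280, chr14:24448696-24487058, minus strand), the largest subunit, had 88.4, 85.6 and 86.5 CPM at 0 h, 136.4, 136.0 and 127.3 CPM at 24 h, and 156.1, 170.6 and 167.7 CPM at 48 h. The 3 groups did not overlap. It rose 1.55-fold by 24 h (0.63 ± 0.10, adjusted p = 0.00301) and 1.90-fold by 48 h (0.92 ± 0.10, adjusted p = 0.000439), and it was also higher at 48 h than at 24 h (0.30 ± 0.06, adjusted p = 0.0116). All of these calls held without each library in turn, and the last missed the threshold with all 9 libraries in 1 fit (adjusted p = 0.0507). Polr3b (ENSMUSG00000034453, chr10:84622292-84727178, plus strand), the second-largest subunit, forms the active site together with Polr3a. It had 102.9, 103.0 and 98.4 CPM at 0 h, 135.1, 122.1 and 132.0 CPM at 24 h, and 97.2, 102.3 and 108.2 CPM at 48 h. Polr3b was thus highest at 24 h, with 0 h and 48 h overlapping. It rose 1.29-fold by 24 h (0.37 ± 0.10, adjusted p = 0.0308) and fell between 24 h and 48 h (-0.35 ± 0.07, adjusted p = 0.00749). At 48 h versus 0 h it differed by 0.02 ± 0.10 (adjusted p = 0.922). The 24 h rise was lost without 0 h replicate 2 or any 24 h library (0.33 to 0.42, adjusted p up to 0.147) and with no expression filter. The fall was lost without 48 h replicate 1 (-0.29, adjusted p = 0.0619). An antisense gene, Gm17249, overlaps 4.69% of the Polr3b exons.

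Polr3e and Polr3d, which form a pair of subunits with a role in initiation and termination, both had their highest levels at 48 h. Polr3e (ENSMUSG00000030880, chr7:120917744-120947432, plus strand) had 48.4, 56.1 and 58.9 CPM at 0 h, 101.3, 102.4 and 102.0 CPM at 24 h, and 115.3, 119.9 and 118.6 CPM at 48 h. The groups did not overlap. It rose 1.89-fold by 24 h (0.92 ± 0.11, adjusted p = 0.00106) and 2.17-fold by 48 h (1.11 ± 0.11, adjusted p = 0.000366), and both calls held without each library in turn. The smaller step from 24 h to 48 h (0.20 ± 0.06, adjusted p = 0.0346) was lost whenever any 1 library of the 6 was left out (0.19 to 0.24, adjusted p 0.0552 to 0.111), and with library size alone or with no expression filter. Polr3d (ENSMUSG00000000776, chr14:70438757-70443447, minus strand) had 63.8, 96.7 and 100.7 CPM at 0 h, 108.9, 102.4 and 111.8 CPM at 24 h, and 136.2, 152.3 and 123.0 CPM at 48 h. The groups did not overlap either, but 0 h replicate 1 lay far below the other 0 h libraries. Polr3d rose 1.58-fold from 0 h to 48 h (0.66 ± 0.19, adjusted p = 0.0335) and rose from 24 h to 48 h (0.34 ± 0.08, adjusted p = 0.019). At 24 h versus 0 h its log2 fold change was 0.32 ± 0.17 (adjusted p = 0.231). The call at 48 h versus 0 h was lost without 0 h replicate 2 or any 48 h library (0.48 to 0.80, adjusted p up to 0.122), and the call against 24 h without 24 h replicate 1, 24 h replicate 2 or 48 h replicate 1 (0.26 to 0.41, adjusted p up to 0.0677). The exons of Polr3d hold 54.8% GC, and with GC and length offsets it also passed at 24 h versus 0 h (0.40, adjusted p = 0.0242).

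Polr3c, Polr3g and Polr3gl belong to the subcomplex that takes part in opening the promoter. Polr3c (ENSMUSG00000028099, chr3:96711490-96727628, minus strand) had 62.3, 62.9 and 70.3 CPM at 0 h, 80.8, 76.3 and 79.0 CPM at 24 h, and 80.5, 80.3 and 81.8 CPM at 48 h. The 0 h values lay below all later ones, but the differences of 0.29 ± 0.11 at 24 h (adjusted p = 0.0904) and 0.31 ± 0.10 at 48 h (adjusted p = 0.0547) did not pass. Both passed in 5 of 9 alternative fits, such as that with GC and length offsets (0.36, adjusted p = 0.0115, and 0.44, adjusted p = 0.00384). Without 0 h replicate 3 they also passed (0.37, adjusted p = 0.0224, and 0.40, adjusted p = 0.015).

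The paralogs Polr3g and Polr3gl diverged. Polr3g (ENSMUSG00000035834, chr13:81673843-81711013, minus strand) had 96.6, 91.7 and 55.9 CPM at 0 h, 77.3, 81.1 and 88.1 CPM at 24 h, and 86.1, 87.3 and 89.6 CPM at 48 h. The later values lay within the range of the 0 h group, in which replicate 3 stood well below the others. The log2 fold change was 0.03 ± 0.21 at 24 h (adjusted p = 0.949) and 0.11 ± 0.20 at 48 h (adjusted p = 0.736) versus 0 h, and both took a negative sign without 0 h replicate 3 (-0.16 and -0.07). Polr3g has the lowest exon GC content of the 10 genes (43.8%), and 0 h replicate 3 is the library richest in GC. Polr3gl (ENSMUSG00000028104, chr3:96577872-96594181, minus strand) had 21.6, 37.3 and 31.8 CPM at 0 h, 21.1, 21.2 and 25.7 CPM at 24 h, and 13.8, 14.8 and 13.3 CPM at 48 h. The 48 h libraries were below all others, while 24 h and 0 h overlapped through 0 h replicate 1. Polr3gl fell 2.16-fold from 0 h to 48 h (-1.11 ± 0.20, adjusted p = 0.0055) and 1.63-fold from 24 h to 48 h (-0.71 ± 0.10, adjusted p = 0.00218), and both calls held without each library in turn, the second missing the threshold with all 9 libraries in 1 fit (adjusted p = 0.0605). At 24 h versus 0 h its difference of -0.40 ± 0.20 did not pass (adjusted p = 0.198), but it passed without 0 h replicate 1 (-0.59, adjusted p = 0.0168). With GC and length offsets the fall to 48 h was -1.01 (adjusted p = 0.00214), and Polr3g differed by 0.02 (adjusted p = 0.92). No stretch of 75 bases is shared between the paralogs, so reads of that length would not be split between them. Of the bases of Polr3gl, 6.10% lie in such stretches shared with other genes, and 3.57% of its exons overlap Gm16253 on the other strand.

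Within each library, the log2 ratio of Polr3g to Polr3gl was 2.16, 1.30 and 0.81 at 0 h, 1.88, 1.94 and 1.78 at 24 h, and 2.64, 2.56 and 2.75 at 48 h. The 48 h libraries lay above all others, and the 24 h values fell inside the wide 0 h range. Over 0 h replicates 1, 2 and 3 the ratio fell while the GC measure of the library rose (-0.76, 0.16 and 0.92). The ratio also went against the GC measure at 48 h, but not at 24 h. GC content is 43.8% in Polr3g and 52.4% in Polr3gl, and its part in the ratio was not tested. The means were 1.42 ± 0.68 (SD, n = 3), 1.86 ± 0.08 and 2.65 ± 0.10, a difference of 1.23 between 48 h and 0 h. The times differed (exact permutation test of the same F statistic, p = 0.0179, and 0.0179 adjusted over the 2 ratios). This p rose above the threshold without any 1 of the 24 h or 48 h libraries (0.0607 to 0.0893), and the difference was 0.92 without 0 h replicate 3 and 1.60 without 0 h replicate 1. Per exon length, Polr3g stood at 1.09 times the level of Polr3gl at 0 h, 1.48 times at 24 h and 2.55 times at 48 h. With the longest transcript as length, these were 1.25, 1.70 and 2.93 times.

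**Figure D3:**
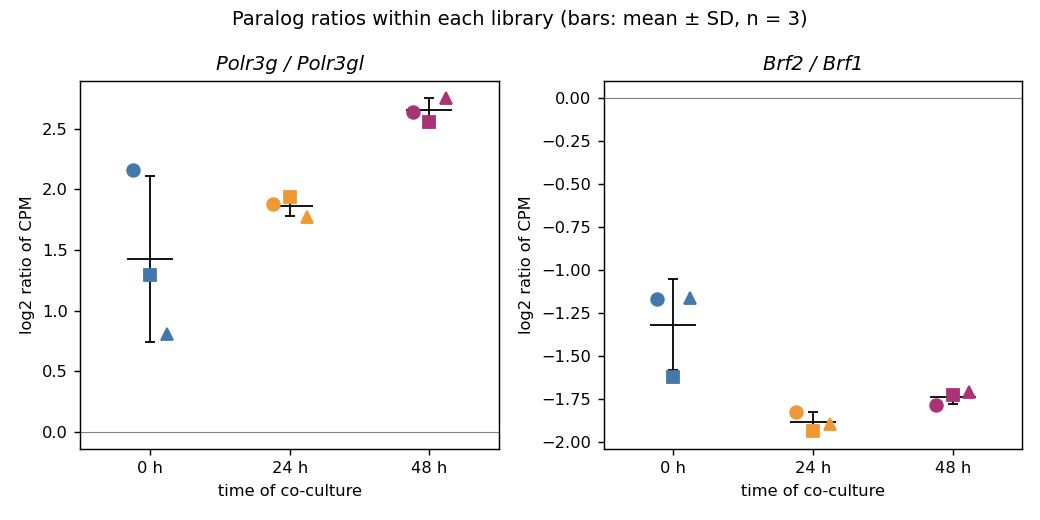
Log2 ratio (y axis) of Polr3g to Polr3gl and of Brf2 to Brf1 in each library at 0 h, 24 h and 48 h (x axis), with bars for mean ± SD (n = 3). The Polr3g to Polr3gl ratio is highest at 48 h (2.56 to 2.75), and the Brf2 to Brf1 ratio is below all 0 h values at both later times.

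Levels per exon length (FPKM, the CPM divided by the kilobases of exon) give the order of the genes within a time. At 0 h, Polr3d (30.5 ± 7.09 FPKM, SD, n = 3) and Maf1 (24.3 ± 5.72) were highest, and Polr3e (10.8 ± 1.08), Brf1 (9.82 ± 0.516) and Brf2 (9.61 ± 1.41) lowest. Neighbours in that order overlapped except for Polr3a (14.9 ± 0.246) and Polr3e. At 24 h, Maf1 (41.0 ± 2.46) and Polr3d (37.7 ± 1.69) overlapped at the top, and Brf2 (8.61 ± 0.542) stood alone at the bottom. By 48 h, the order was Polr3d (48.1 ± 5.15), Maf1 (36.2 ± 2.79), Polr3a (28.3 ± 1.32), Polr3c (23.9 ± 0.242), Polr3e (23.5 ± 0.472), Polr3g (22.3 ± 0.45), Polr3b (19.5 ± 1.04), Brf1 (13.1 ± 1.27), Brf2 (9.50 ± 0.937) and Polr3gl (8.74 ± 0.492). Only the neighbours Polr3c and Polr3e, and Brf2 and Polr3gl, overlapped at 48 h. The catalytic subunits Polr3a and Polr3b thus changed places, from 14.9 against 19.3 FPKM at 0 h to 28.3 against 19.5 FPKM at 48 h. The order depends on the length used. With the longest transcript of each gene as its length, Brf1 moved up from 13.1 to 31.1 FPKM at 48 h, and Polr3d and Maf1 stayed at the top.

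The rest of the Pol III machinery was read from lists of its other genes. Of the 4 other Pol III subunits, 1 rose at 24 h and at 48 h versus 0 h. This was Polr3k, a small subunit with a role in RNA cleavage and termination (0.47 ± 0.11, adjusted p = 0.018, and 0.46 ± 0.13, adjusted p = 0.0319). Both calls were lost without 0 h replicate 2 or any 1 library of the later time (0.36 to 0.54 over both, adjusted p up to 0.128), with no expression filter and with GC and length offsets. The list had a median of 0.24 and 0.29, and 0 of 4 passed between 24 h and 48 h. None of the 7 subunits shared with other polymerases passed in any comparison (medians 0.01, 0.14 and 0.06). Bdp1 and Tbp, the partners of Brf1 and Brf2 in TFIIIB, did not pass in any comparison (medians -0.17, 0.18 and 0.36). TFIIIC, which recruits TFIIIB to tRNA genes, and TFIIIA, which acts at 5S genes, had 0 of 7 genes called in each comparison (medians -0.02, -0.04 and -0.04). Of the Gtf3a exons 59.1% overlap Mtif3, and of the Gtf3c2 exons 38.9% overlap Gm29609, so the counts of Gtf3a and Gtf3c2 are uncertain. Of 7 genes of SNAPc and its partners, which act with Brf2, 1 rose at 48 h versus 0 h. This was Snapc5, with 3.80, 7.98 and 4.68 CPM at 0 h and 11.7, 12.6 and 10.6 CPM at 48 h (1.08 ± 0.28, adjusted p = 0.0233), and the call was lost without any 1 of the 48 h libraries (0.88 to 1.45, adjusted p up to 0.0826). The list had 0 calls at 24 h versus 0 h and at 48 h versus 24 h (medians 0.03, 0.09 and 0.17).

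Among 10 genes of mTORC1 and of kinases and phosphatases linked to Maf1 or Pol III, 1 rose and 2 fell at 24 h versus 0 h, 4 rose and 1 fell at 48 h versus 0 h, and 1 rose and 1 fell between 24 h and 48 h (medians 0.04, 0.12 and 0.13). Mtor, the kinase of mTORC1, had 276, 277 and 291 CPM at 0 h, 653, 615 and 582 CPM at 24 h, and 432, 457 and 443 CPM at 48 h. It rose 2.21-fold by 24 h (1.15 ± 0.10, adjusted p = 0.000268), then fell (-0.48 ± 0.07, adjusted p = 0.00151), and stayed above 0 h at 48 h (0.66 ± 0.09, adjusted p = 0.0017). Its partners Mlst8 (0.49 ± 0.14, adjusted p = 0.0323) and Rptor (0.32 ± 0.10, adjusted p = 0.0453) also rose at 48 h versus 0 h, where 22.5% of the Mlst8 exons overlap Bricd5. Both were lost without 0 h replicate 2 or any 48 h library, and Rptor also without 0 h replicate 1 (0.37 to 0.57 for Mlst8, adjusted p up to 0.127, and 0.28 to 0.39 for Rptor, adjusted p up to 0.168), and both with no expression filter. Csnk2a1, a catalytic subunit of casein kinase 2, fell at 24 h (-1.06 ± 0.12, adjusted p = 0.000757) and 48 h (-0.64 ± 0.11, adjusted p = 0.00466) versus 0 h and rose between them (0.42 ± 0.07, adjusted p = 0.00447). Its counts are uncertain, since 61.6% of its bases lie in 75-base stretches that also occur in pseudogenes such as Gm10031. The other catalytic subunit, Csnk2a2, rose at 48 h versus 0 h (0.54 ± 0.13, adjusted p = 0.0171), a call lost without 0 h replicate 2 or any 48 h library (0.44 to 0.68, adjusted p up to 0.074). The phosphatase subunit Ppp2ca fell at 24 h (-0.36 ± 0.10, adjusted p = 0.04), with 42.5% of its exons overlapping other genes, and passed without only 1 of the 6 libraries, 0 h replicate 3 (-0.40 to -0.31 over the 6, adjusted p up to 0.184). It passed in 4 of 9 alternative settings. The call was lost with library size alone, with no expression filter, with at least 10 counts in every library and with the replicate number as a block. It was also lost with GC and length offsets (-0.42, adjusted p = 0.0569).

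Other genes act on the products of Pol III. Of 14 genes of tRNA maturation and export, 0 rose and 1 fell at 24 h versus 0 h, 0 rose and 1 fell at 48 h versus 0 h, and 2 rose and 1 fell at 48 h versus 24 h (medians -0.02, 0.01 and 0.03). Xpot, the tRNA export receptor, fell by 24 h (-0.46 ± 0.11, adjusted p = 0.0176) and rose again by 48 h (0.27 ± 0.06, adjusted p = 0.0097 versus 24 h), the fall being lost without any 1 of the 24 h libraries (-0.51 to -0.38, adjusted p up to 0.0931) and the rise with all 9 libraries in 1 fit. Pop5, Rpp25 and Rpp38 are protein subunits of RNase P. Pop5 was lower at 48 h than at 0 h (-0.46 ± 0.14, adjusted p = 0.0392), a call kept only when the library left out was 0 h replicate 1 (-0.56 to -0.30 over the 6, adjusted p up to 0.15) and lost with library size alone. Between 24 h and 48 h, Rpp25 fell (-0.58 ± 0.12, adjusted p = 0.0111) and Rpp38 rose (0.52 ± 0.13, adjusted p = 0.0223). Rpp25 was lost without 48 h replicate 1 (adjusted p = 0.0578) and with GC and length offsets (-0.35, adjusted p = 0.0642). Rpp38 was lost without 24 h replicate 1, 24 h replicate 2 or 48 h replicate 1 (0.43 to 0.67, adjusted p up to 0.0782) and with all 9 libraries in 1 fit.

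Of 8 Pol III transcripts looked for, 6 had too few counts to be tested. The libraries select poly-A RNA, and 4 of the 6 (Rn7s1, Rn7s2, Rnu6 and Rmrp) have 100% of their bases in 75-base stretches that other annotated genes share. The part of either in these counts was not tested. The remaining 2 rose at 48 h. Rn7sk, the 7SK RNA that restrains elongation by Pol II, had 5.61, 1.69 and 13.4 CPM at 0 h, 8.44, 6.73 and 9.96 CPM at 24 h, and 48.2, 48.8 and 51.5 CPM at 48 h. It rose 7.15-fold over 0 h (2.84 ± 0.61, adjusted p = 0.0109) and 5.85-fold over 24 h (2.55 ± 0.12, adjusted p = 1.95e-05), and both calls held without each library in turn. Over 0 h the difference then ranged from 2.37 to 3.82, the highest being without 0 h replicate 3. At 24 h versus 0 h it did not pass (0.29 ± 0.61, adjusted p = 0.784), and the sign turned without 0 h replicate 2 (-0.19). Of its bases, 72.8% lie in 75-base stretches that other annotated genes share. Rpph1, the RNA of RNase P, had 4 to 26 counts at 0 h, 6 to 30 at 24 h and 43 to 70 at 48 h, and it rose over 0 h (1.94 ± 0.52, adjusted p = 0.0267) and over 24 h (1.62 ± 0.41, adjusted p = 0.0231). Ccnb1ip1, on the same strand, overlaps 73.0% of Rpph1, so the reads of Rpph1 are uncertain. The call over 0 h was lost without 0 h replicate 2 or any 48 h library (1.58 to 2.82, adjusted p up to 0.0971), and that over 24 h without 24 h replicate 1 or 48 h replicate 1 (1.24 to 2.25, adjusted p up to 0.0758). These levels are those of the RNA that poly-A selection retained and not of the whole pool.

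The other polymerases were set beside Pol III. Of 12 genes of the Pol I machinery, 2 rose and 1 fell at 24 h versus 0 h, 2 rose and 0 fell at 48 h versus 0 h, and 6 rose and 0 fell at 48 h versus 24 h (medians -0.02, 0.08 and 0.22). Polr1a, the largest subunit of Pol I, averaged 76.8 ± 2.35, 120.1 ± 7.51 and 166.7 ± 5.44 CPM over the times (SD, n = 3). It rose at 24 h (0.66 ± 0.11, adjusted p = 0.00364), at 48 h (1.12 ± 0.09, adjusted p = 0.00018) and between them (0.46 ± 0.07, adjusted p = 0.00196), values near those of Polr3a in the same comparisons. Taf1c, a subunit of the Pol I selectivity factor, rose at 24 h (0.52 ± 0.15, adjusted p = 0.0433), at 48 h (0.96 ± 0.15, adjusted p = 0.00287) and between them (0.45 ± 0.07, adjusted p = 0.00251), the first of these being lost without 0 h replicate 2 or any 24 h library (0.38 to 0.66, adjusted p up to 0.159) and with no expression filter. Polr1e, another Pol I subunit, fell at 24 h versus 0 h (-0.39 ± 0.12, adjusted p = 0.0446), a call that passed in 3 of 9 alternative settings, not with DESeq2, library size alone, no expression filter or at least 10 counts in every library, and that was lost without those same libraries (-0.44 to -0.35, adjusted p up to 0.163). It rose from 24 h to 48 h (0.45 ± 0.09, adjusted p = 0.0103). Taf1d, of the same factor, rose between 24 h and 48 h (0.50 ± 0.12, adjusted p = 0.0179), a call lost without 24 h replicate 1 or 48 h replicate 3 (0.40 to 0.60, adjusted p up to 0.0627) and with all 9 libraries in 1 fit. With GC and length offsets its difference was 0.26 (adjusted p = 0.0298). Of 8 subunits particular to Pol II, 0 passed at 24 h versus 0 h and at 48 h versus 24 h, and Polr2b rose at 48 h versus 0 h (0.44 ± 0.14, adjusted p = 0.0478), not so without 0 h replicate 2 or any 48 h library (0.34 to 0.53, adjusted p up to 0.142) or with no expression filter. At 24 h versus 0 h Polr2b had a difference of 0.38 (adjusted p = 0.0877), and it passed there in 4 of 9 alternative settings, among them GC and length offsets (0.42, adjusted p = 0.00448). Their medians were 0.05, 0.02 and -0.04. No test of one list against another was run.

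**Figure D4:**
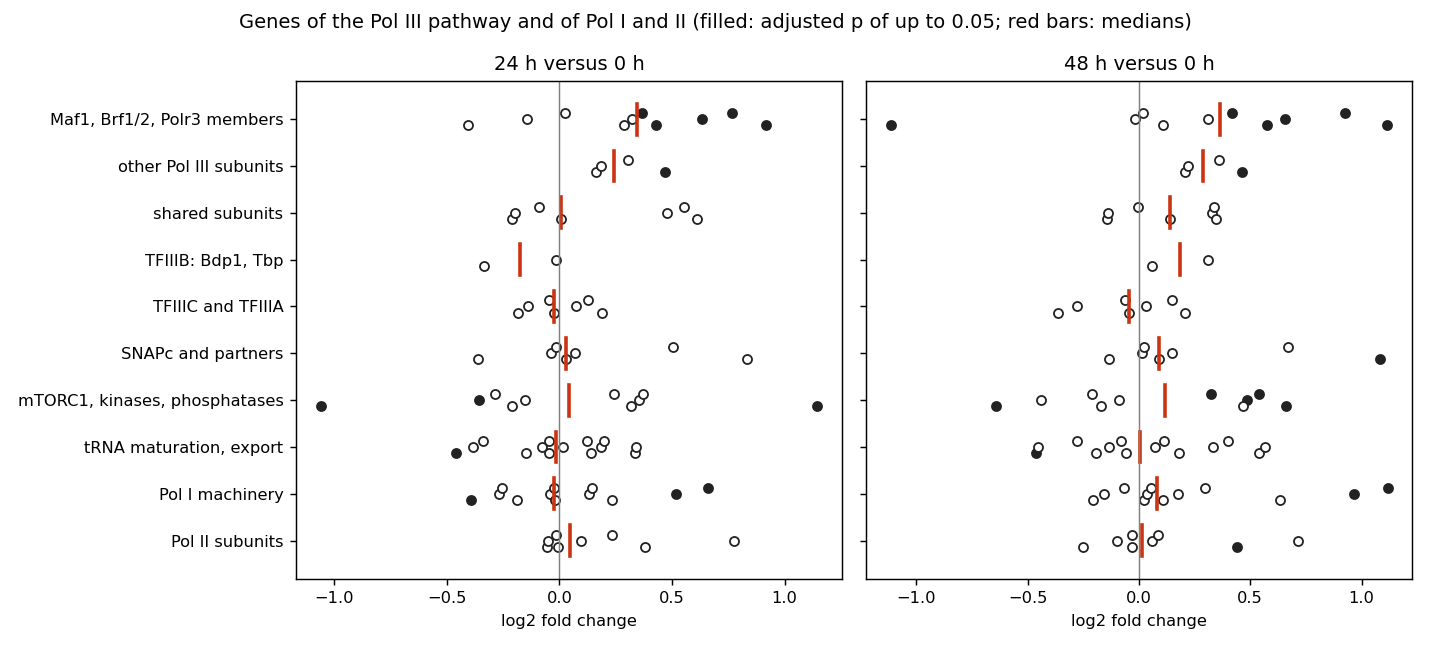
Log2 fold changes (x axis) at 24 h and 48 h versus 0 h of the genes of each list (y axis), with 1 point per gene, filled where the adjusted p was up to 0.05, and red bars for medians. The 10 Pol III genes had medians of 0.35 and 0.36, and the Pol II subunits 0.05 and 0.02. Those of the other Pol III subunits were 0.24 and 0.29, and of the shared subunits 0.01 and 0.14. Bdp1 and Tbp had -0.17 and 0.18, TFIIIC and TFIIIA -0.02 and -0.04, and SNAPc and its partners 0.03 and 0.09.

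The genes whose log2 CPM went most like Maf1 over the 9 libraries, among 10357 genes with a mean of at least 10 CPM, were Smurf1 (Pearson r = 0.987), Haus4 (0.985) and Gm11223 (0.985). Smurf1 had mean levels of 119.5, 166.4 and 155.9 CPM over the times. Its mean was highest at 24 h, as was that of Maf1, whose difference between 24 h and 48 h did not pass the test. Those most like Polr3g were Ddx4 (0.988), Topors (0.981) and Zcchc9 (0.974). Ddx4 is an RNA helicase used as a germ cell marker, with means of 357.2, 359.2 and 381.7 CPM at the 3 times. The points of these correlations share the depth and GC content of their libraries, and they are given as a description.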

How the data were processed

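The authors deposited raw counts, the number of reads on each Ensembl gene, for 9 libraries sequenced by poly-A RNA-seq. The submitters' processing notes list fastp, HISAT2, featureCounts and GRCm38, and versions and strand setting were not given in the sources used here. The authors tested with DESeq2. Symbols, positions and lengths came from GENCODE M21, which held 45143 of 46078 identifiers. The others took at most 0.121% of the counts of a library. Genes were tested two-sided with edgeR 4.0.16 (glmQLFit and glmQLFTest, R 4.3.3) on the 6 libraries of each comparison, with filterByExpr, TMM and Benjamini-Hochberg adjustment over all genes tested. CPM were scaled by TMM factors of all 9 libraries, and FPKM were computed here from CPM and the union of exons. Ratios used TMM-scaled log2 CPM with a prior count of 0.5, and exact permutation of an F statistic over the 3 times (Python 3.11.15). The fits were tested on simulated counts with a dispersion of 0.02 and no GC differences between libraries. In the data, the square root of the dispersion was 0.22 (24 h versus 0 h), 0.23 (48 h versus 0 h) and 0.12 (48 h versus 24 h). Both comparisons with 0 h were thus more variable than the simulated counts, which do not show how the fits behave at that spread. Biological replicates are as labelled, and nothing says whether they were separate cultures. If they were not, p-values measure technical spread only. The members and lists were chosen with earlier results of these data known. Named were the 10 members, list genes past the threshold of 0.05 with a log2 fold change of at least 0.5 in size in the same comparison (up to 4 per list), genes behind list counts of 5 or fewer, and the 3 genes most like Maf1 and Polr3g. The alternatives were DESeq2 1.42.0, other size factors, other filters, all 9 libraries in 1 fit, a replicate block, offsets for GC content and length (natural splines, df 5 and 4), another prior count or gene length, and leaving out each library.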

Additional observations from a re-analysis of the deposited data

How the results depend on the processing

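At 24 h versus 0 h, 48 h versus 0 h and 48 h versus 24 h, 5, 6 and 5 Pol III genes were called. With no expression filter, 3 passed in the first, beside 4270 of 31871 genes tested (4494 of 17592 in the main fit). With all 9 libraries in 1 fit, 1 (Polr3b) passed in the last, where the calls over all genes also went from 3732 to 1043. Leaving out each library in turn gave 2 to 6, 3 to 7 and 2 to 5 Pol III genes, and 2607 to 6023, 3471 to 7116 and 1857 to 4356 genes over all. Fewer libraries take part in those fits, and the calls went up in some of them and down in others. The cause of these shifts was not tested. The 48 h minus 0 h difference in the log2 ratio of Polr3g to Polr3gl ranged from 0.92 to 1.60 in these fits, and that of Brf2 to Brf1 from -0.57 to -0.35.

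Same-numbered libraries of different times did not deviate together (r from -0.28 to 0.20 over 9 pairs, with 1 above 0.1, and 3 of 9 libraries correlated best with their own number). Over 18 pairs with different numbers, r went from -0.40 to 0.38. With 3 libraries per time, this check cannot show whether libraries with the same number shared a culture or batch. With the replicate number as a block, 3, 4 and 3 Pol III genes passed, beside 3007, 4013 and 2497 genes over all (4494, 5602 and 3732 without the block). Brf1 and Polr3b lost their calls at 24 h versus 0 h, and Maf1 and Brf1 at 48 h versus 0 h. Polr3d and Polr3e lost theirs at 48 h versus 24 h. The Polr3g to Polr3gl ratio over the 3 times had an exact permutation p of 0.0556 with this block. Its 48 h minus 0 h difference of 1.23 was not tested alone.

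Signs turned only for values that did not pass the test in any setting named here. With GC and length offsets, without and with the block, Brf2 at 48 h versus 0 h was 0.17 and 0.18, and Polr3g at 48 h versus 24 h was -0.027 in both, and Pop5 at 48 h versus 24 h was 0.018 and 0.023. Brf2 at 48 h versus 0 h was 0.10 with library size alone and 0.0012 with at least 10 counts in every library. Brf1 at 48 h versus 24 h was 0.0026 with DESeq2, 0.0042 with its size factors in edgeR and 0.012 with at least 10 counts, and Polr3k in that comparison was 0.010 with DESeq2, 0.012 with its size factors, 0.020 with at least 10 counts and 0.0061 with all 9 libraries in 1 fit. Rpph1 at 24 h versus 0 h was -0.0041 with block and offsets. Without 1 library, the ranges were -0.16 to 0.17 for Polr3g, -0.19 to 1.26 for Rn7sk, -0.28 to 1.21 for Rpph1 and -0.084 to 0.38 for Taf1d at 24 h versus 0 h, -0.13 to 0.11 for Brf2, -0.017 to 0.064 for Polr3b and -0.075 to 0.25 for Polr3g at 48 h versus 0 h, and -0.088 to 0.050 for Brf1, -0.095 to 0.067 for Polr3k and -0.16 to 0.033 for Pop5 at 48 h versus 24 h. With the longest transcript as length, 29 of 30 FPKM values moved by more than the replicate SD. At these depths the rarest of the 10 genes, Polr3gl, still had at least 262 counts in a library.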
